A study of Mus musculus with 11 samples.

Results

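The 9 genes described here turn pyruvate into acetyl-CoA, oxaloacetate and phosphoenolpyruvate, or run the tricarboxylic acid (TCA) cycle, and were followed in epididymal white adipose tissue (eWAT) of mice. They were taken by gene symbol from a list of TCA cycle, pyruvate and glyceroneogenesis genes, and all 9 were found among the 15453 genes measured in every mouse. They are Cs, Idh3a, Ogdh, Suclg1, Fh1, Mdh2, Pcx, Pdha1 and Pck1. The tissue came from 11 male C57BL/6 mice (C57BL/6J in the study's methods), 6 wildtype (WT) and 5 Mest+/- mice with the paternal allele of mesoderm specific transcript (Mest) inactivated (pKO), all 16 weeks old. From week 8 to week 16 both genotypes ate a high fat diet, so no mouse on a low fat diet enters the comparison. The pKO allele lacks Mest exon 3 in every tissue, through an EIIa-cre deletion carried in the germline, so the fat cell is not the only cell that carries it. Gene expression was read by SAGE (serial analysis of gene expression), in which a transcript is counted by a short tag at its last NlaIII site. The comparison asks whether genes of pyruvate use and the TCA cycle differ in eWAT when Mest is inactivated. The study's own measurements put the mice of both genotypes at different adiposity, so genotype and adiposity cannot be told apart here.

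Pyruvate enters the mitochondrion and meets a fork. Pyruvate dehydrogenase turns it into acetyl-CoA, which citrate synthase joins to oxaloacetate at the start of the TCA cycle, and pyruvate carboxylase turns it into oxaloacetate, which refills the cycle. In white fat much of the citrate made this way leaves the mitochondrion and feeds fatty acid synthesis. Cytosolic phosphoenolpyruvate carboxykinase (PEPCK), made from Pck1, draws oxaloacetate out of the pool. In the fat cell its product is used for glyceroneogenesis, the making of the glycerol 3-phosphate on which fatty acids are re-esterified into triglyceride.

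The tags are shown because each value below is a count of one short sequence per transcript and not of reads along the whole gene. Each is the last NlaIII site with 23 bases after it in the principal transcript of the GENCODE M21 annotation (GRCm38), read 5′ to 3′ along the mRNA, with the NlaIII site in capitals.
Cs, chr10:128362416-128362442, plus strand: CATGatgcagacttcaggatgttctgt
Idh3a, chr9:54604390-54604416, plus strand: CATGaacctagcctttggcccacacca
Ogdh, chr11:6356174-6356200, plus strand: CATGgggtatttagaggactttagcag
Suclg1, chr6:73276780-73276806, plus strand: CATGcagctgacactggttggtctctc
Fh1, chr1:175600412-175600438, minus strand: CATGaagctccaggattacagtaaact
Mdh2, chr5:135790261-135790287, plus strand: CATGtctttggaaccacttgagaatct
Pcx, chr19:4621415-4621441, plus strand: CATGggacagcacacacactacctgca
Pdha1, chrX:160122234-160122260, minus strand: CATGtgctgtgaaaaggaaacgaatta
Pck1, chr2:173159132-173159158, plus strand: CATGttgctttgttgctagtatgtatg

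All 9 tags lie in the 3′ UTR, in the last exon, between 52 and 469 bases from the end of the transcript. None of the 9 occurs at an NlaIII site of an annotated transcript of another gene, so a subunit is not counted through its close relatives by this sequence. In 8 of the 9 genes the complete coding transcripts share this tag, and Pcx has 2 different last tags among its 3 complete coding transcripts. Ogdh and Pcx each have 1 further NlaIII site that lies too near the transcript end to give a tag of full length. The values per gene are those of the authors' own tag assignment, which was not redone here.

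The libraries held between 9659740 and 14825727 tags in WT and between 11320342 and 14626803 in pKO mice. Mest tags, normalized, ran between 20756 and 27897 in WT mice and between 793 and 2275 in pKO mice, although its tag lies in exon 12, outside the deleted exon, and so does not read the deletion itself. Of all 15453 genes, 9906 reached the minimum mean, 50 normalized tags in WT or in pKO mice. Limma called 5 of these at the adjusted threshold (Benjamini-Hochberg adjusted p ≤ 0.1), and 480 higher and 572 lower in pKO mice at an unadjusted p of at most 0.05. When libraries were scaled to their total instead, the same unadjusted threshold gave 330 higher and 726 lower. One pKO mouse, pKO 2, moved the calls more than any other mouse, since 91 genes passed the adjusted threshold without it. The median distance of a gene from the mean of the other mice of the same genotype was 0.16 to 0.23 on the log2 scale in WT and 0.21 to 0.38 in pKO mice, with pKO 1 the farthest. By this distance pKO 2 (0.29) was nearer to the others than pKO 1 (0.38) and pKO 5 (0.30). Because pKO 2 was singled out by its effect on the calls, fits without it are a description and not a separate test. Results are given with pKO 2 and, for part of the genes, without it.

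No member passed the adjusted threshold in limma (0 of 9, where 0.0505% of all genes passed in either direction). At an unadjusted p of at most 0.05, Pck1 and Pdha1 were higher in pKO mice (2 of 9, against 4.85% of all genes) and Fh1 was lower (1 of 9, against 5.77%). With only 9 genes, 1 gene is 11.1% of the list. EdgeR's quasi-likelihood test and DESeq2 on the recovered tags also called 0 of 9 at the adjusted threshold, where they passed 0.0505% and 1.22% of all genes. At the unadjusted one both called Pck1 and Pdha1 higher (2 of 9, against 5.2% of all genes in edgeR and 6.13% in DESeq2) and Fh1 lower (1 of 9, against 4.85% and 5.26%). The median log2 fold change of the 9 genes, pKO minus WT, was 0.22, beside 0.01 over all genes with the minimum mean, and 7 of the 9 had a value above 0. The WT and pKO ranges overlapped in all 9, while 1.43% of all genes had ranges apart. Without pKO 2, 1 of the 9 (Pck1) passed the adjusted threshold, against 0.919% of all genes, and 3 of the 9 (Pck1, Pdha1 and Ogdh) had ranges apart, against 4.36%. In bulk tissue, fewer cells of a type and less RNA per cell cannot be told apart.

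**Figure D1:**
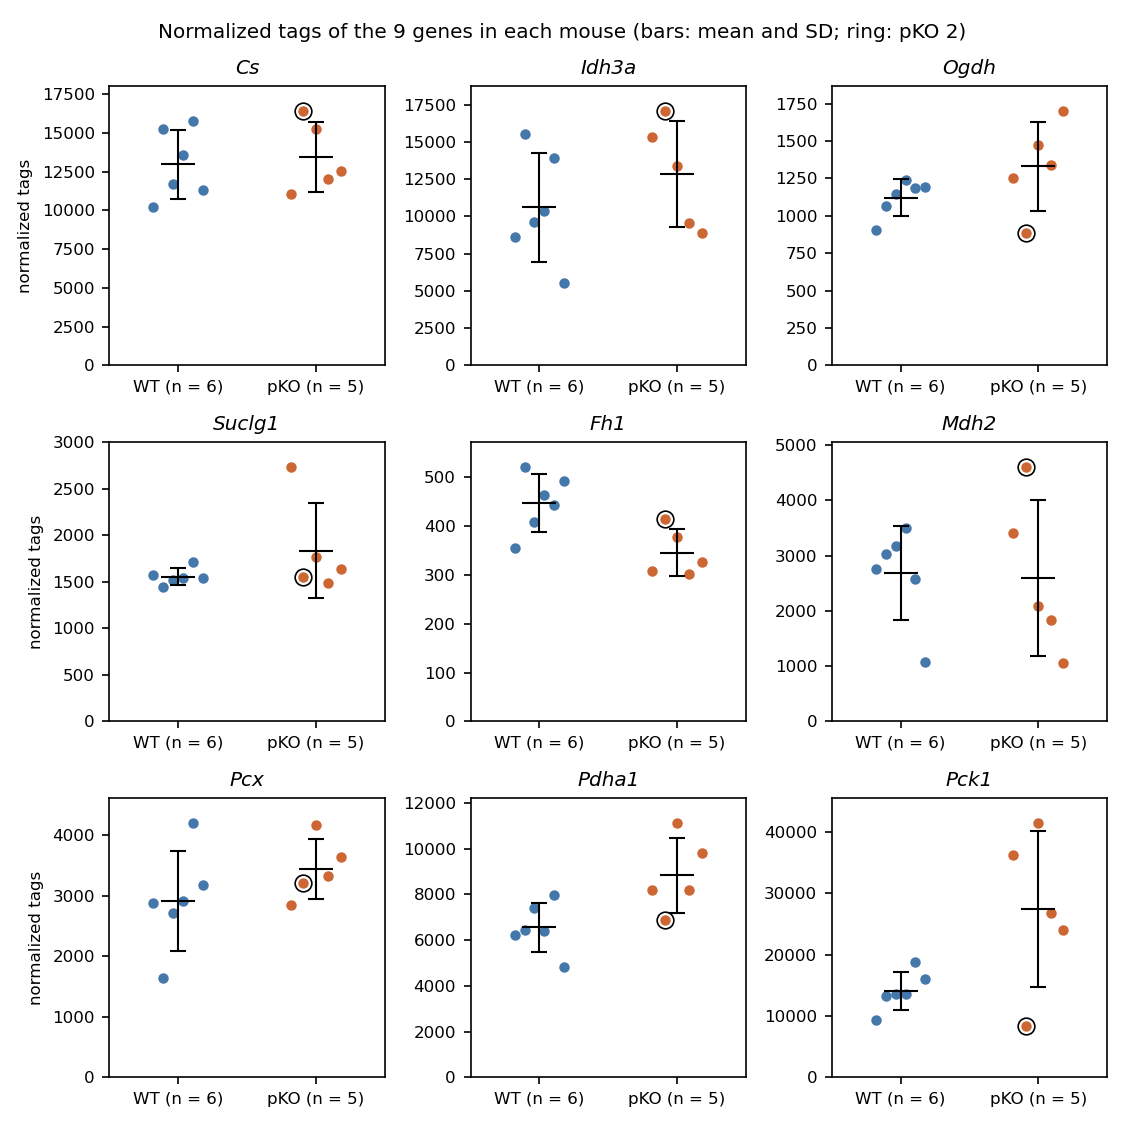
Normalized tags (y axis, linear, from 0) of each of the 9 genes in 6 WT and 5 pKO mice (x axis). Each point is a mouse, the bars are the mean and SD, and the ring marks pKO 2, whose Pck1 value of 8404 lies below all WT mice while the other 4 pKO values lie above them.

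The genes spanned a 50.1-fold range of abundance. Because a transcript gives at most 1 tag, these levels do not depend on transcript length, although how well each site is captured was not measured. Pck1 was the most abundant of the 9 (rank 63 of the 15453 genes, by mean normalized tags over the 11 mice), followed by Cs (rank 111), Idh3a (rank 137) and Pdha1 (rank 220). Pcx, Mdh2, Suclg1 and Ogdh stood at ranks 604, 717, 1187 and 1649, and Fh1 at rank 4073. Neighbours in this order were not always apart. Pcx was above Mdh2 in 6 of the 11 mice, Pck1 above Cs in 8 and Cs above Idh3a in 8. By contrast Pdha1 was above Pcx, and Ogdh above Fh1, in all 11 mice. The 9 genes together held 0.433% of all tags in WT and 0.578% in pKO mice, as means of the percent of summed values.

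Pck1 encodes cytosolic PEPCK, the enzyme that commits oxaloacetate to glyceroneogenesis. Its normalized tags in WT mice ran from 9312 to 18715, with a median of 13558. In pKO mice 1 to 5 they were 36261, 8404, 41343, 26793 and 23979. All but pKO 2 were above every WT mouse, and pKO 2 was below every WT mouse. The means were 14044 ± 3132 in the 6 WT and 27356 ± 12707 in the 5 pKO mice (mean ± SD), a ratio of 1.95. Limma gave a log2 fold change of 0.81 (standard error, SE, 0.34; 95% interval 0.09 to 1.53, unadjusted p = 0.031, adjusted p = 0.48). The two-sided exact permutation test over the 462 ways to split the mice gave p = 0.076, where the smallest possible is 0.0022. Without pKO 2 the pKO mean was 32094 ± 8100 (SD, n = 4), 2.29 times the WT mean, and the log2 fold change was 1.19 with an adjusted p of 0.048 (limma). Leaving out WT 1, pKO 1, pKO 3 or pKO 4 took the unadjusted p above 0.05, with log2 fold changes that stayed above 0. EdgeR's quasi-likelihood test gave an adjusted p of 0.41 and DESeq2 one of 0.16 with all mice.

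The spread of Pck1 was itself large in pKO mice, at a coefficient of variation of 46.4%, more than that of 91.0% of the genes with the minimum mean in that genotype. In WT mice it was 22.3%, more than that of 74.3% of the genes. As a share of the summed tags of the 9 genes, Pck1 took 21.7% to 35.3% in WT mice. It took 14.2% in pKO 2 and 37.7% to 45.5% in the other 4 pKO mice, so these 4 lay above the WT range. The other 8 genes summed to 38856 ± 6945 in the 6 WT and 44665 ± 5793 in the 5 pKO mice (mean ± SD), a ratio of 1.15.

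Pck2 makes the mitochondrial PEPCK, which carries out the same reaction inside the mitochondrion. It had 486 ± 28.7 normalized tags in the 6 WT and 498 ± 38.1 in the 5 pKO mice (mean ± SD), with a log2 fold change of 0.03 (95% interval -0.20 to 0.27, adjusted p = 0.95, limma). Pck2 was also one of the steadiest genes, with a coefficient of variation of 5.92% in WT and 7.66% in pKO mice. The ratio of Pck1 to Pck2 tags was 18.9 to 39.7 in WT mice. In pKO mice it was 17.1 in pKO 2 and 52.6 to 80.3 in the other 4. With all mice the ranges overlapped (exact permutation test, p = 0.076).

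Glycerol 3-phosphate can come from glyceroneogenesis or from glucose, both by way of Gpd1. It can also come from free glycerol by way of glycerol kinase, listed here as Gyk. The 5 genes listed for this branch were Gpd1, Gpd2, Gyk, Aqp7 and Tpi1. Of these, Gpd2 was higher in pKO mice at an unadjusted p of at most 0.05 and none was lower. Over all genes, 4.85% were higher and 5.77% lower at that threshold. Gpd2, the mitochondrial glycerol 3-phosphate dehydrogenase that oxidizes glycerol 3-phosphate back to dihydroxyacetone phosphate, had 199 to 286 normalized tags in WT and 341, 351, 462, 432 and 414 in pKO mice 1 to 5. No pKO value fell into the WT range, where 1.43% of all genes had ranges apart. The log2 fold change of Gpd2 was 0.67 (SE 0.14, adjusted p = 0.19, limma), and its exact permutation p was 0.0022, the smallest possible. Without pKO 2 its adjusted p was 0.085. With all mice DESeq2 gave an adjusted p of 0.0029 and edgeR's quasi-likelihood test one of 0.20. Gpd1 had a log2 fold change of -0.38 (95% interval -0.83 to 0.07, adjusted p = 0.59, limma), with 3189 to 5134 in WT mice and 2138, 5626, 2699, 3155 and 3221 in pKO mice 1 to 5. In pKO 2 Gpd1 was thus above all WT mice, while Pck1 was below them, and without pKO 2 the log2 fold change of Gpd1 was -0.58 (adjusted p = 0.16, limma). The ratio of Pck1 to Gpd1 tags was 2.13 to 4.57 in WT mice, 1.49 in pKO 2 and 7.44 to 17.0 in the other pKO mice. Over all 11 mice the exact permutation test gave p = 0.078 for this ratio.

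**Figure D2:**
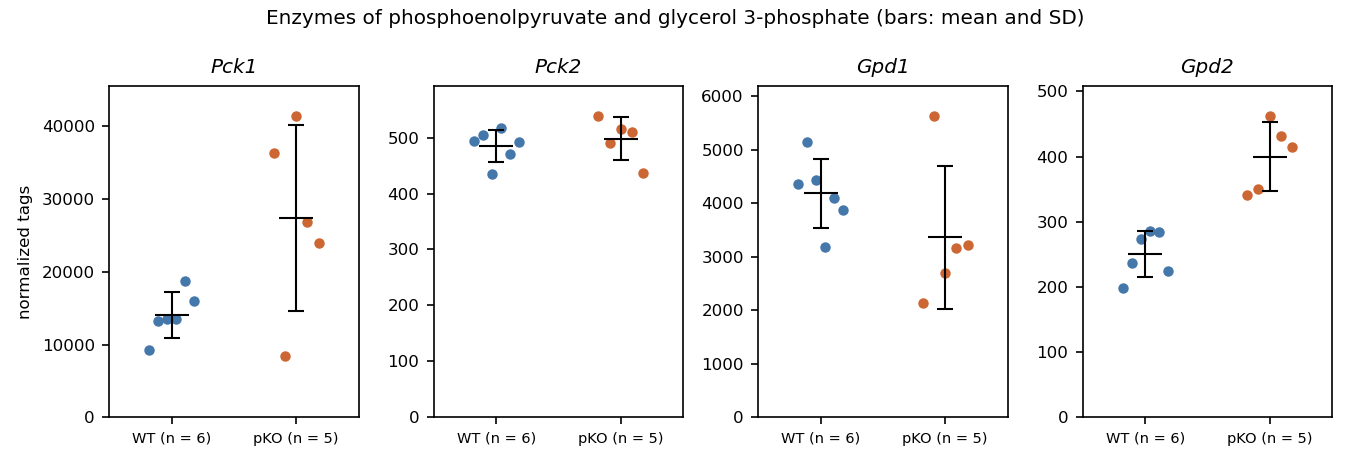
Normalized tags (y axes, linear, from 0) of Pck1, Pck2, Gpd1 and Gpd2 in 6 WT and 5 pKO mice (x axis), with each mouse as a point and bars for the mean and SD. Gpd2 was 199 to 286 in WT and 341 to 462 in pKO mice with no overlap, while the ranges of the other 3 genes overlapped.

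Pdha1 encodes the E1 alpha subunit of pyruvate dehydrogenase, the part of the complex that takes pyruvate and that is switched off by phosphorylation. WT mice had 4843 to 7987 normalized tags with a median of 6436. The pKO mice 1 to 5 had 8207, 6873, 11102, 8184 and 9807. All pKO mice except pKO 2 were above every WT mouse, and pKO 2 lay within the WT range. The means were 6556 ± 1083 (SD, n = 6) and 8835 ± 1640 (SD, n = 5), a ratio of 1.35 (log2 fold change 0.43, SE 0.16, adjusted p = 0.43, limma). The unadjusted p was 0.017, and the exact permutation test gave p = 0.022. Only the fit without pKO 3 took the unadjusted p above 0.05, and without pKO 2 the log2 fold change was 0.51 (adjusted p = 0.20).

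Of the other 4 subunits of the complex, Pdhb passed the unadjusted threshold, beside 10.6% of all genes in either direction. Pdhb, the E1 beta subunit that pairs with Pdha1, had 491 to 863 normalized tags in WT and 1143, 857, 1105, 676 and 1469 in pKO mice 1 to 5. The values of pKO 2 and pKO 4 lay within the WT range. Pdhb was higher in pKO mice at an unadjusted p of 0.0082 (log2 fold change 0.66, SE 0.21, adjusted p = 0.37, limma). Dlat, the E2 subunit that makes acetyl-CoA, had a log2 fold change of -0.01 (95% interval -0.30 to 0.29), and Pdhx, which binds E3 to the core, one of 0.24 (95% interval -0.07 to 0.54). Dld, the E3 subunit shared with the 2-oxoglutarate dehydrogenase complex, ran from 138 to 532 in WT and from 229 to 696 in pKO, and its interval ran from -0.40 to 1.18. The ratio of Pdha1 to Pdhb tags was 10.3 ± 2.52 in the 6 WT and 8.80 ± 2.25 in the 5 pKO mice (mean ± SD), which differed by less than the SD (p = 0.29, exact permutation test).

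A list of 11 genes that carry pyruvate or lactate, or switch the complex on and off, was read beside it, namely Mpc1, Mpc2, Pdk1 to Pdk4, Pdp1, Pdp2, Pdpr, Ldha and Ldhb. Of these 9 had the minimum mean. In limma 0 of those 9 passed an unadjusted p of 0.05 in either direction, beside 10.6% of all genes. The median log2 fold change of those 9 was 0.05, and single values ran from -0.69 to 0.40. The lowest belonged to Mpc2, a subunit of the mitochondrial pyruvate carrier, and the highest to Pdk3, a kinase of the complex; both are named because they end the range. Ldha, which links pyruvate and lactate, is named after its values were seen. It had 17815 to 29042 normalized tags in WT mice and 12819, 41146, 23891, 18817 and 16024 in pKO mice 1 to 5. In pKO 2 it was above every WT mouse, and in pKO 1 and pKO 5 below every WT mouse. Its log2 fold change was -0.18 with all mice (unadjusted p = 0.48, adjusted p = 0.86, limma) and -0.43 without pKO 2 (unadjusted p = 0.045, adjusted p = 0.38).

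Pcx encodes pyruvate carboxylase, which competes with pyruvate dehydrogenase for the same substrate. It had 1634 to 4195 normalized tags in WT mice, with a median of 2893, and 2848, 3212, 4165, 3330 and 3647 in pKO mice 1 to 5. Every pKO value lay within the WT range. The means were 2918 ± 823 (SD, n = 6) and 3440 ± 495 (SD, n = 5), and the log2 fold change of 0.28 had a 95% interval of -0.15 to 0.70 (adjusted p = 0.68, limma). Without WT 2 it was 0.12. The ratio of Pcx to Pdha1 tags was 0.453 ± 0.137 in the 6 WT and 0.394 ± 0.0464 in the 5 pKO mice (mean ± SD; exact permutation test, p = 0.53), so no shift between the 2 routes was detected at this number of mice.

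Cs encodes citrate synthase, whose activity is a common measure of mitochondrial content. It had 10239 to 15770 normalized tags in WT and 11061, 16379, 15247, 11993 and 12551 in pKO mice 1 to 5. The means differed by a ratio of 1.04 and the log2 fold change was 0.05 (95% interval -0.28 to 0.39, adjusted p = 0.94, limma). Its sign turned when WT 1 or pKO 2 was left out. The Pdha1 to Cs ratio was 0.512 ± 0.0899 in the 6 WT and 0.671 ± 0.145 in the 5 pKO mice (mean ± SD; exact permutation test, p = 0.084). Of 12 genes listed as measures of mitochondrial content, such as the outer membrane channels and the import machinery, Hspd1 was higher in pKO mice at an unadjusted p of at most 0.05 and 0 were lower. Hspd1, the matrix chaperonin, had 1675 ± 292 in the 6 WT and 2523 ± 507 in the 5 pKO mice (mean ± SD; log2 fold change 0.58, SE 0.16, adjusted p = 0.36, limma). DESeq2 gave Hspd1 an adjusted p of 0.085. The median log2 fold change of these 12 genes was 0.07. Over all genes, 4.85% were higher and 5.77% lower at the unadjusted threshold. When pKO 2 was left out, Hspd1 and Tomm22 were higher and Vdac1 was lower (log2 fold change -0.56, unadjusted p = 0.023, limma). These were 2 and 1 of the 12, beside 6.41% and 8.52% of all genes.

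Idh3a encodes the catalytic subunit of NAD-dependent isocitrate dehydrogenase. Its normalized tags were 5535 to 15534 in WT mice, with a median of 9993, and 15319, 17048, 13387, 9542 and 8877 in pKO mice 1 to 5. The log2 fold change was 0.31 (95% interval -0.25 to 0.86, adjusted p = 0.74, limma), within the spread between mice. It was 0.13 without WT 6 and 0.19 without pKO 2. The regulatory subunits were far less abundant by tag. Idh3b stood at 251 ± 29.9 in WT against 275 ± 70.4 in pKO mice, and Idh3g at 269 ± 71.5 against 293 ± 75.3 (SD, n = 6 and n = 5). Their log2 fold changes were 0.11 each, with 95% intervals of -0.26 to 0.47 and -0.34 to 0.57.

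Ogdh encodes the E1 subunit of the 2-oxoglutarate dehydrogenase complex, a control point of the cycle. It had 904 to 1237 normalized tags in WT mice, with a median of 1165. The pKO mice 1 to 5 had 1253, 888, 1473, 1342 and 1699. As with Pck1, 4 pKO mice lay above every WT mouse and pKO 2 below every WT mouse. The log2 fold change was 0.22 (95% interval -0.12 to 0.56, adjusted p = 0.68, limma). Without pKO 2 it was 0.36, with an unadjusted p of 0.018 and an adjusted p of 0.28. Without pKO 5 it was 0.13, with an unadjusted p of 0.43. Dlst, the E2 subunit of the same complex, was the partner gene with the smallest p. It had 2482 to 3502 in WT mice and 5872, 3420, 4892, 4011 and 4603 in pKO mice 1 to 5, so that only pKO 2 fell into the WT range. Its ratio of means was 1.48 (log2 fold change 0.56, SE 0.15, unadjusted p = 0.0028, adjusted p = 0.33, limma), and DESeq2 gave an adjusted p of 0.066. The ratio of Dlst to Ogdh tags was 2.75 ± 0.353 in the 6 WT and 3.51 ± 0.782 in the 5 pKO mice (mean ± SD; exact permutation test, p = 0.054).

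Suclg1 encodes the alpha subunit of succinate-CoA ligase, common to the GDP-forming and ADP-forming enzymes. It was among the steadiest genes in WT mice, at 1439 to 1713 normalized tags and a coefficient of variation of 5.75%. In pKO mice it was 2728, 1556, 1765, 1485 and 1639, so pKO 1 stood well above all other mice. The log2 fold change of 0.20 (95% interval -0.12 to 0.53, adjusted p = 0.69, limma) was 0.05 without pKO 1. The beta subunits Suclg2 and Sucla2 had log2 fold changes of 0.09 (95% interval -0.22 to 0.40) and 0.00 (95% interval -0.27 to 0.27). Tags of Suclg2 relative to Sucla2 stood at 0.842 ± 0.106 in the 6 WT and 0.913 ± 0.222 in the 5 pKO mice (mean ± SD; exact permutation test, p = 0.65).

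Fh1 encodes fumarase, which hydrates fumarate to malate, and it was the only one of the 9 genes lower in pKO mice at an unadjusted p of at most 0.05. WT mice had 355 to 520 normalized tags with a median of 454. The pKO mice 1 to 5 had 308, 414, 376, 302 and 326. In pKO mice 1, 4 and 5 it was below every WT mouse, and pKO 2 and pKO 3 lay within the WT range. The means were 447 ± 59.1 in WT and 345 ± 48.2 in pKO mice (SD), a ratio of 0.773 (log2 fold change -0.37, SE 0.14, 95% interval -0.67 to -0.08, adjusted p = 0.43, limma). The unadjusted p was 0.017 and the exact permutation p was 0.019. Its direction and an unadjusted p of at most 0.05 were kept in all 21 other fits, in which the adjusted p ran from 0.21 to 0.63. Fh1 is the least abundant member, with 319 to 508 recovered tags in a library.

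Mdh2 encodes mitochondrial malate dehydrogenase, which closes the cycle by making oxaloacetate. It had 1069 to 3496 normalized tags in WT mice, with a median of 2893, and 3411, 4598, 2090, 1838 and 1051 in pKO mice 1 to 5. WT 6 and pKO 5 were the lowest, at 1069 and 1051, and pKO 2 was the highest of all. The coefficient of variation in pKO mice, 54.1%, exceeded that of 95.2% of the genes with the minimum mean. The log2 fold change was -0.14, with a wide 95% interval of -0.92 to 0.65 (adjusted p = 0.94, limma), and it turned to 0.14 without pKO 5.

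**Figure D3:**
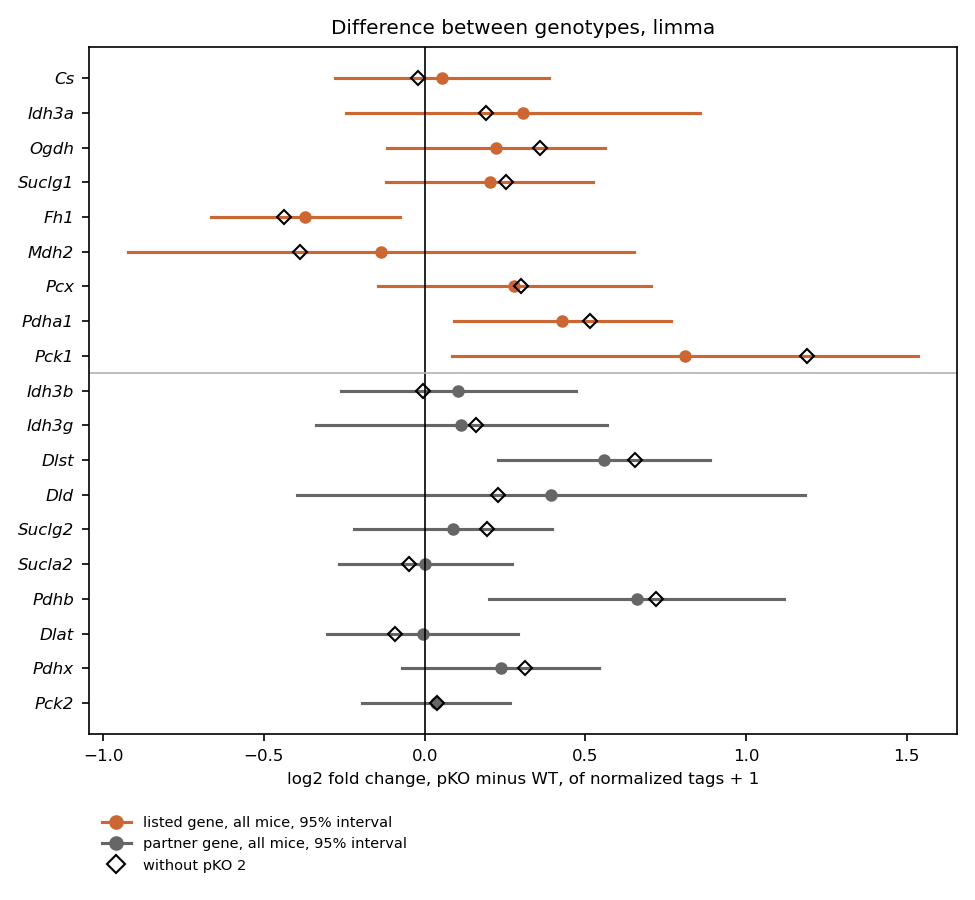
Log2 fold change, pKO minus WT, of normalized tags + 1 (x axis) for the 9 genes (top) and 10 partner genes (bottom), with 95% intervals from limma over 11 mice and open diamonds for the value without pKO 2. The intervals of Fh1, Pdha1, Pck1, Dlst and Pdhb leave out 0, and Pck1 moved from 0.81 to 1.19 without pKO 2.

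Idh2 and the 4 subunits of succinate dehydrogenase were listed as further genes of the cycle. Of these 5, 2 were higher in pKO mice at an unadjusted p of at most 0.05, beside 4.85% of all genes. Sdha, the subunit that oxidizes succinate, had a ratio of means of 1.24 (log2 fold change 0.32, adjusted p = 0.52, limma). Sdhc, a membrane anchor of the same enzyme, had a ratio of 1.19 (log2 fold change 0.24, adjusted p = 0.52, limma). Neither had an unadjusted p of at most 0.05 without pKO 2, and of the 5 genes 0 did. In that fit 6.41% of all genes were higher and 8.52% lower. Idh2, the mitochondrial NADP-dependent isocitrate dehydrogenase, had a log2 fold change of -0.31 (unadjusted p = 0.070, adjusted p = 0.55, limma), with 0 of 5 pKO mice above the WT mean, and -0.18 without pKO 2. The other subunits, Sdhb and Sdhd, had log2 fold changes of 0.20 and 0.28 and did not pass. Succinate dehydrogenase feeds Fh1, which had the opposite sign.

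Entry of propionyl-CoA and glutamine carbon into the cycle was represented by Pcca, Pccb, Mut, Mcee, Glud1 and Glul. Of these 6, 3 were higher at an unadjusted p of at most 0.05, beside 4.85% of all genes. All 3 belong to the route that turns propionyl-CoA into succinyl-CoA. Pcca, a propionyl-CoA carboxylase subunit, had a log2 fold change of 0.60. Mcee, the methylmalonyl-CoA epimerase, had one of 0.44, and Mut, the methylmalonyl-CoA mutase, one of 0.37 (adjusted p = 0.52, 0.50 and 0.52, limma). For Pcca, 3 of the 5 pKO mice were above the WT mean, and the ranges overlapped (exact permutation test, p = 0.095). The fourth gene of that route, Pccb, had a log2 fold change of 0.18 with an unadjusted p of 0.21. Without pKO 2, 3 of the 6 were higher at an unadjusted p of at most 0.05, beside 6.41% of all genes.

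For the export of citrate and malate carbon, 11 of 12 listed genes had the minimum mean. Of these 11, 1 was higher and 0 lower at an unadjusted p of at most 0.05, beside 4.85% and 5.77% of all genes. The higher gene was Aco1, the cytosolic aconitase that also acts as an iron-responsive RNA-binding protein. It ran from 196 to 378 in WT and from 401 to 569 in pKO mice with no overlap (log2 fold change 0.56, SE 0.17, adjusted p = 0.37, limma). Ranges were apart in 1.43% of all genes. The median log2 fold change of these 11 genes was 0.03.

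Counted together, 55 of the 58 genes of these pathway lists had the minimum mean, the 9 members included. Of the 55, 11 (20%) were higher and 1 (1.82%) was lower in pKO mice at an unadjusted p of at most 0.05, beside 4.85% and 5.77% of all genes. Their median log2 fold change was 0.11, and 36 of the 55 had a value above 0. With all mice 0 of the 55 passed the adjusted threshold in limma, where the lowest adjusted p was 0.19, for Gpd2, and 0 in edgeR. Of all genes, 0.0505% passed in each. DESeq2 passed 2 of the 55, Gpd2 (adjusted p = 0.0029) and Dlst (adjusted p = 0.066), beside 1.22% of all genes. Without pKO 2, 11 were higher and 3 (Fh1, Gpd1 and Ldha) lower at the unadjusted threshold, beside 6.41% and 8.52% of all genes. In that fit 2 (Pck1 and Gpd2) passed the adjusted threshold, beside 0.919% of all genes. The genes of one pathway are measured in the same mice, so these shares describe the lists and are not a test of them.

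**Figure D4:**
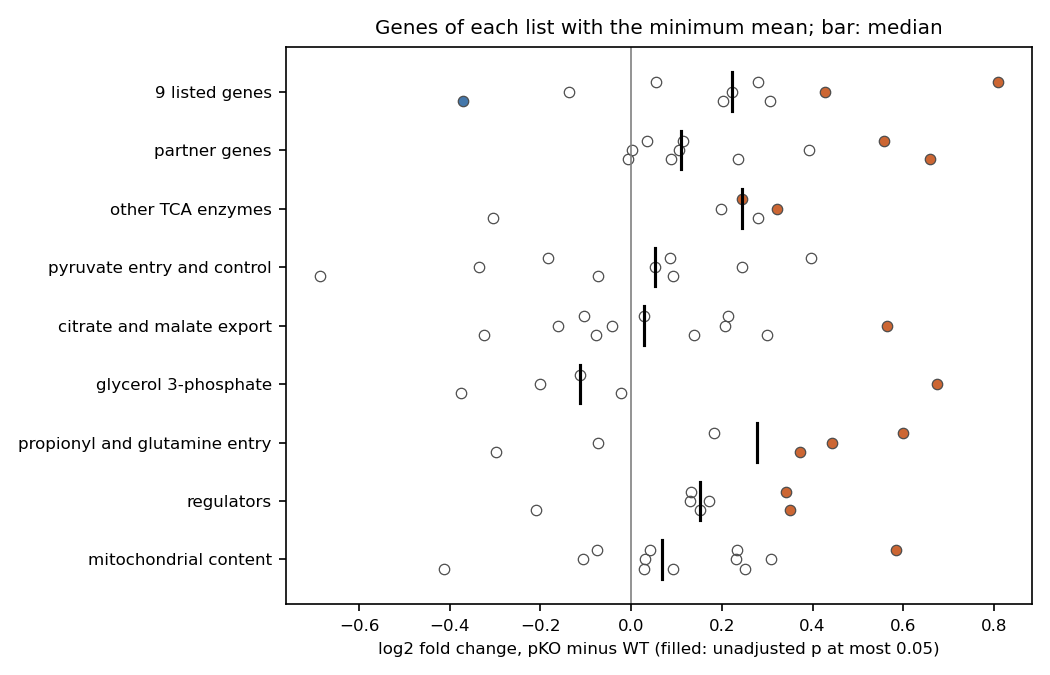
Log2 fold change, pKO minus WT (x axis), of each gene with the minimum mean in the 9 lists (rows), with filled points at an unadjusted limma p of at most 0.05 and a bar at each list's median. The medians run from -0.11 for the glycerol 3-phosphate genes to 0.28 for the genes of propionyl-CoA and glutamine entry, with 0.22 for the 9 members, and Fh1 is the only filled point below 0.

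A further 10 transcription factors and coactivators that act on Pck1 or on mitochondrial genes were followed too. The minimum mean was reached by 7, and 2 of these were higher in pKO mice at an unadjusted p of at most 0.05, beside 4.85% of all genes. Cebpa, an adipogenic factor that is known to act on the Pck1 promoter, had 23100 ± 2256 in the 6 WT and 29530 ± 3638 in the 5 pKO mice (mean ± SD; log2 fold change 0.35, adjusted p = 0.43, limma). Nr3c1, the glucocorticoid receptor, had 2056 to 2608 in WT and 2713 to 3462 in pKO mice with no overlap (log2 fold change 0.34, adjusted p = 0.37, limma). Of all genes, 1.43% had ranges apart. Pparg, the nuclear receptor that drives fat cell genes, had a log2 fold change of 0.13 with an unadjusted p of 0.43. Ppargc1a and Ppargc1b, the coactivators of mitochondrial biogenesis, stayed under the minimum mean.

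Correlations between members were of both signs. After the genotype mean was subtracted on the log2 scale, 21 of the 36 pairs of genes had a positive and 15 a negative correlation over the 11 mice, with a median Pearson r of 0.07. For 5 pairs there was a permutation p of at most 0.05, and none of the 36 had an adjusted p of at most 0.05. Idh3a and Mdh2 gave the highest r, 0.80 (permutation p = 0.0047, adjusted p = 0.17; Spearman's rho = 0.64, permutation p = 0.045), which was 0.74 without the 2 mice farthest in Idh3a. Cs and Fh1 followed at r = 0.78 (permutation p = 0.011, adjusted p = 0.20; Spearman's rho = 0.73, permutation p = 0.021), and r was 0.81 without the 2 farthest mice. Ogdh and Pck1 had r = 0.76 (permutation p = 0.048, adjusted p = 0.35; Spearman's rho = 0.62, permutation p = 0.060), but r was -0.07 without WT 1 and pKO 2, so that relation rests on those mice. The most negative pair was Ogdh and Mdh2, at r = -0.67 (permutation p = 0.039, adjusted p = 0.35; Spearman's rho = -0.62, permutation p = 0.087).

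**Figure D5:**
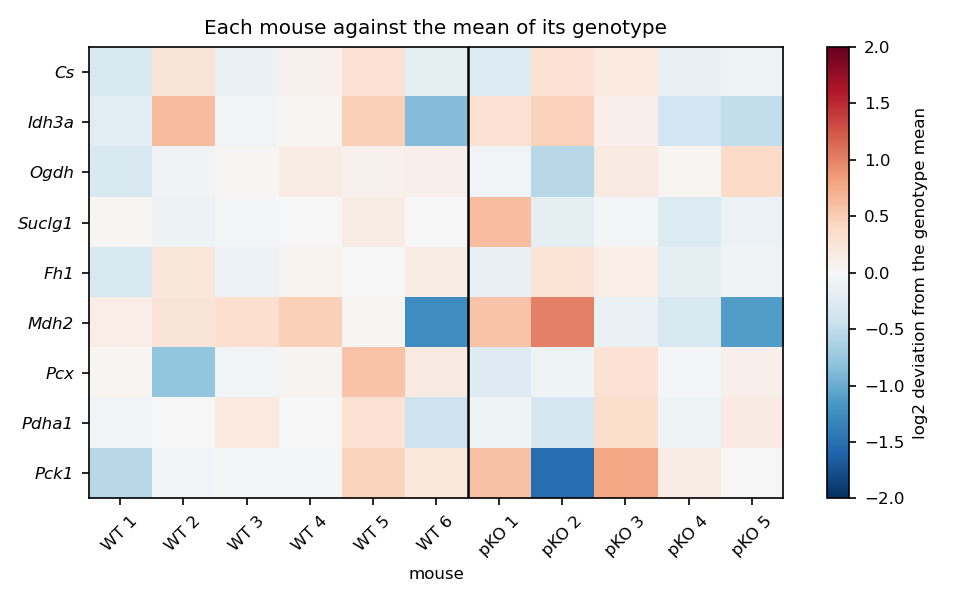
Log2 deviation of each of the 9 genes (rows) from the mean of its genotype in each of the 11 mice (columns), red above and blue below. In pKO 2, Pck1 had a deviation of -1.52, the largest shown, while Mdh2 was at its highest, and Mdh2 was low in WT 6 and pKO 5.

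Read mouse by mouse, WT 5 was above its genotype mean in 8 of the 9 genes and pKO 3 in 7 of 9, while pKO 4 was below it in 7 of 9. The mean deviation over the 9 genes ran from -0.23 in WT 6 to 0.26 in WT 5 on the log2 scale. The profile of pKO 2 was split. It was the highest of all 11 mice for Cs, Idh3a and Mdh2 and the lowest of all for Ogdh and Pck1.

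Of 9540 genes compared, the 5 whose deviations were most like those of Pck1 over the 11 mice were Dtna, Zfp275, Tnk2, Ttc39c and Tppp, with Pearson r from 0.91 to 0.95. For the mean of the other 8 members, over 9533 genes, they were Spata24, Exosc4, Pla2g6, 1810062O18Rik and Acvr1c, with r from 0.90 to 0.93. These were picked as the highest of all values over 11 mice and are given as a description. Without the 2 mice farthest in Pck1, r for Ttc39c was 0.58 and for Dtna 0.87.

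Fat cell markers were abundant in every mouse. Their summed normalized tags (Adipoq, Plin1, Cidec, Lipe, Fabp4 and Lep) were 661772 to 1070047 in WT and 704408 to 1082909 in pKO mice, with 0 of 6 genes past an unadjusted p of 0.05. With all mice their log2 fold changes were of both signs: Plin1 0.36, Adipoq 0.18, Fabp4 0.09, Cidec 0.04, Lipe -0.22 and Lep -0.49. Plin1 was higher when pKO 2 was left out (log2 fold change 0.51, unadjusted p = 0.012, limma). In that fit Adipoq (0.29) and Cidec (0.11) were above 0, and Fabp4 (-0.02), Lipe (-0.23) and Lep (-0.38) below 0. With all mice, macrophage markers were lower in pKO mice at an unadjusted p of at most 0.05 in 3 of the 6 genes with the minimum mean. These were Itgam (log2 fold change -0.72), Itgax (-0.90) and Cd14 (-0.45). Emr1 (-0.01, unadjusted p = 0.95, limma), Csf1r (-0.24) and Mrc1 (-0.23) did not pass with all mice, and Cd68 was under the minimum mean. The sum over the 7 macrophage markers measured ran from 3233 to 4718 in WT and from 2879 to 3839 in pKO mice. In the fit without pKO 2, the unadjusted p was 0.058 for Itgax and 0.041 for Mrc1, both lower in pKO mice (limma). Mesothelial markers were higher in 2 of 4 (Krt19 and Msln), with sums of 659 to 918 in WT and 764 to 1544 in pKO mice. Erythroid markers were higher in 2 of 3 (Hba-a1 and Hba-a2), with sums of 375 to 961 in WT and 648 to 1649 in pKO mice. Over all genes, 4.85% were higher and 5.77% lower at the unadjusted threshold. Leaving out pKO 2 left 1 of 4 mesothelial and 1 of 3 erythroid markers higher, beside 6.41% of all genes. Of 4 endothelial markers Kdr was higher (log2 fold change 0.44), while Cdh5 (0.38), Tie1 (0.02) and Pecam1 (-0.39, or -0.44 with an unadjusted p of 0.040 without pKO 2) did not pass with all mice, and sums were 3433 to 5003 in WT and 3698 to 4801 in pKO mice. Of 4 progenitor markers Dcn was higher (log2 fold change 0.37), while Pdgfra, Dpt and Col1a1 had values from -0.03 to 0.10, and sums were 28294 to 37924 in WT and 37284 to 45325 in pKO mice. B cell sums were 190 to 287 in WT and 179 to 394 in pKO mice, and T cell sums were 19.4 to 115 and 52.9 to 82.1. Muscle sums were 41.5 to 72.8 in WT and 19.4 to 225 in pKO mice and brown fat sums 13.3 to 34.3 and 7.73 to 32.1. The T cell and brown fat lists held 0 genes with the minimum mean, so no gene of theirs could be called. The B cell list held 2 such genes and the muscle list 1, none past the unadjusted threshold. Cd3g, Ms4a1, Cpt1b and Ckm were at 0 in at least 1 library. The part of these markers in the differences of the 9 genes was not tested.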

How the data were processed

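Epididymal fat RNA of 11 mice was primed at the poly-A tail, cut with NlaIII and sequenced as SOLiD SAGE tags. The authors mapped tags with a modified SOLiD SAGE Analysis Software (mm10 and edgeR 3.2.3 in the submitters' processing notes), and the annotation and gene filter are not given in the sources used here. The deposited values are a signal of 1 value per gene and mouse: every value is a whole multiple (tolerance 0.01) of a library step of 0.836 to 1.19, which makes them tags scaled by a factor per library, and whole tags were recovered for 100% of values. Limma 3.58.1 (trend) was fitted on log2(value + 1) over all 15453 genes with Benjamini-Hochberg adjustment. Fold changes are on that scale. A gene was called at adjusted p ≤ 0.1, or, as a looser rule, unadjusted p ≤ 0.05, with a mean of at least 50 in a genotype. EdgeR 4.0.16 and DESeq2 1.42.0 were run on recovered tags as alternatives, besides other scalings, pseudocounts, filters and fits without each mouse. Single values were tested by a two-sided exact permutation test over 462 splits. Pairs of libraries differed beyond sampling noise (chi-square per degree of freedom at least 17.7), so each counts as 1 mouse. Members and lists were chosen with earlier results of these data known. All 9 members and 10 partner subunits are named; in the other lists, those past the looser rule, and genes named otherwise are named after their values were seen. The 5 epididymis markers, Ucp1, Myh4 and Hbb-b1 were not analysed here. Some genes of these pathways are not reported here. No library batch was given in the sources used here. The fits were tested on simulated data. Tags came from GENCODE M21 transcripts (GRCm38) and were not counted in reads.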

Additional observations from a re-analysis of the deposited data

Results flagged for a closer look

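A single mouse lay far from the others of its genotype in 4 of 60 groups tested (30 genes in each genotype, by Dixon's test), where chance gives about 3. Suclg1 had 2728 normalized tags in pKO 1, against 1485 to 1765 in the other pKO mice. Sdhc had 2725 in WT 5, against 2167 to 2317 in the other WT mice. Mut had 1335 in WT 1, against 2136 to 2472 in the other WT mice. Nr3c1 had 3462 in pKO 1, against 2713 to 2820 in the other pKO mice. What set these mice apart was not tested.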

How the results depend on the processing

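Over all genes, the count at adjusted p ≤ 0.1 was 5 with all mice and 3 to 91 with each mouse left out, the 91 without pKO 2 and 12 without WT 5. It was 9 when genes under the minimum mean were left out of the fit, 121 with DESeq2, 3 at adjusted p ≤ 0.05 and 5 with edgeR. The number of the 9 members past the adjusted threshold was 0, or 0 to 1 with a mouse left out, the 1 being Pck1 without pKO 2, whose log2 fold change lay between 0.61 and 1.19. The number higher at the unadjusted threshold was 2, or 0 to 3 with a mouse left out (0 without pKO 3, where 3.3% of all genes were higher, 1 without WT 1, pKO 1 or pKO 4, where 3.74%, 5.88% and 5.12% were, and 3 without pKO 2, where 6.41% were). Fh1 was lower in every fit. Cs (-0.021 to 0.12 with a mouse left out) turned to -0.011 without WT 1 and -0.021 without pKO 2, and Mdh2 (-0.39 to 0.14) to 0.14 without pKO 5; neither passed a threshold in any fit. No pairing of mice by replicate number is given in the sources used here. The correlations of same-numbered mice were -0.09 to 0.14. Mice of different numbers were not compared, so these values cannot settle whether the numbers pair the mice. A replicate block over replicates 1 to 5 called 1 gene, 0 of the 9 members at the adjusted threshold, and changed no member's direction. The design limits what these tags can show: 6 mice against 5, and 1 tag site per transcript.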
